A study of Homo sapiens with 4 samples.

Results

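The mitochondrial ribosomal protein genes were taken as the protein-coding rows of the deposited gene table whose symbol starts with MRPL or MRPS followed by a digit. This rule found 78 genes among the 60544 rows, 27 of the small ribosomal subunit and 51 of the large subunit. The study sequenced poly(A) RNA from PC3, an established human prostate cancer cell line, in 4 libraries. Of these, 2 libraries carry the label shNC, the control, and 2 the label sh812, and the stated design is a knockdown of METTL3. The sh812 arm was read as the knockdown, and all 4 libraries come from the same line grown in the same medium. METTL3 is the catalytic subunit of the nuclear complex that writes N6-methyladenosine (m6A) on messenger RNA, and m6A itself was not measured. Knockdown rests on 1 shRNA label, so an effect of METTL3 and an effect particular to that shRNA cannot be told apart. The labels do not say that the replicates were separate cultures, so p-values measure the spread between these libraries, which may be technical.

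The mitochondrial ribosome sits in the mitochondrial matrix and translates the few messenger RNAs encoded by mitochondrial DNA, all for subunits of the respiratory chain and ATP synthase. Its ribosomal RNAs are made inside the organelle, whereas its proteins are encoded in the nucleus, made on cytosolic ribosomes and imported. Some of these proteins have counterparts in bacterial ribosomes and others are specific to mitochondria, and the symbols MRPS30 and MRPS18A belong to proteins that sit in the large subunit despite the S in their names.

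Total counts ran from 31450648 to 37041330 per library. METTL3 stood at 44.3 and 43.6 CPM (counts scaled to the library's total) in shNC and at 7.66 and 8.75 CPM in sh812. The fitted log2 fold change was -2.42 ± 0.11 (SE, adjusted p = 5.54e-14, edgeR quasi-likelihood test), so the targeted gene goes with the labels. Of the cell markers, the epithelial keratin KRT8 was at 222 to 254 CPM and the leukocyte marker PTPRC at 0.342 to 0.844 CPM. The prostate-specific antigen gene KLK3 had 0 counts in every library. Some markers moved with the groups. PECAM1, an endothelial marker, was at 23.8 and 23.7 CPM in shNC and 32.9 and 38.5 CPM in sh812 (adjusted p = 2.22e-04, edgeR). COL1A1, a stromal marker, was at 37.6 and 39.4 CPM in shNC and 29.3 and 34.5 CPM in sh812 (adjusted p = 0.0589). The 3 markers of other cells summed to 62.2 and 63.6 CPM in shNC and 62.5 and 73.7 CPM in sh812, and the epithelial gene EPCAM rose by 36.4% (adjusted p = 1.28e-04). Their part in the results that follow was not tested.

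Mitochondrial ribosomal protein transcripts were higher in the sh812 libraries by a small amount. Of the 77 genes that passed the low-count filter, 25 rose (32.5%) and 0 fell in edgeR's quasi-likelihood test at an adjusted p under 0.05. Over all 16802 genes tested, 5.43% were called higher and 5.42% lower. No member was called lower with DESeq2 or limma-voom either, and at an unadjusted p under 0.05 the count was 37 higher and 0 lower, beside 11.9% and 12.9% of all genes. The fitted fold change was above zero for 69 members and below zero for 8, with a median log2 fold change of 0.17 beside -0.01 over all genes tested. The quartiles of the members were 0.07 and 0.25 on the log2 scale. MRPL53, the member left out by the filter, had 0 counts in every library, and 45.2% of its exon bases are shared with CCDC142 on the same strand.

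The counts of calls depended on single libraries. Without sh812 replicate 1, 3 members (3.90%) were called higher, beside 1.46% of all genes in that fit. Without sh812 replicate 2 the number was 10 (13.0%), beside 1.55% of all genes. Without shNC replicate 1 it was 20 (26.0%) and without shNC replicate 2 it was 34 (44.2%), beside 5.24% and 9.50% of all genes. In each of these fits 1 arm is a single library, assumed to vary like the other group. The members called in all 4 of these fits were MRPL12, MRPL36 and MRPS6.

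**Figure D1:**
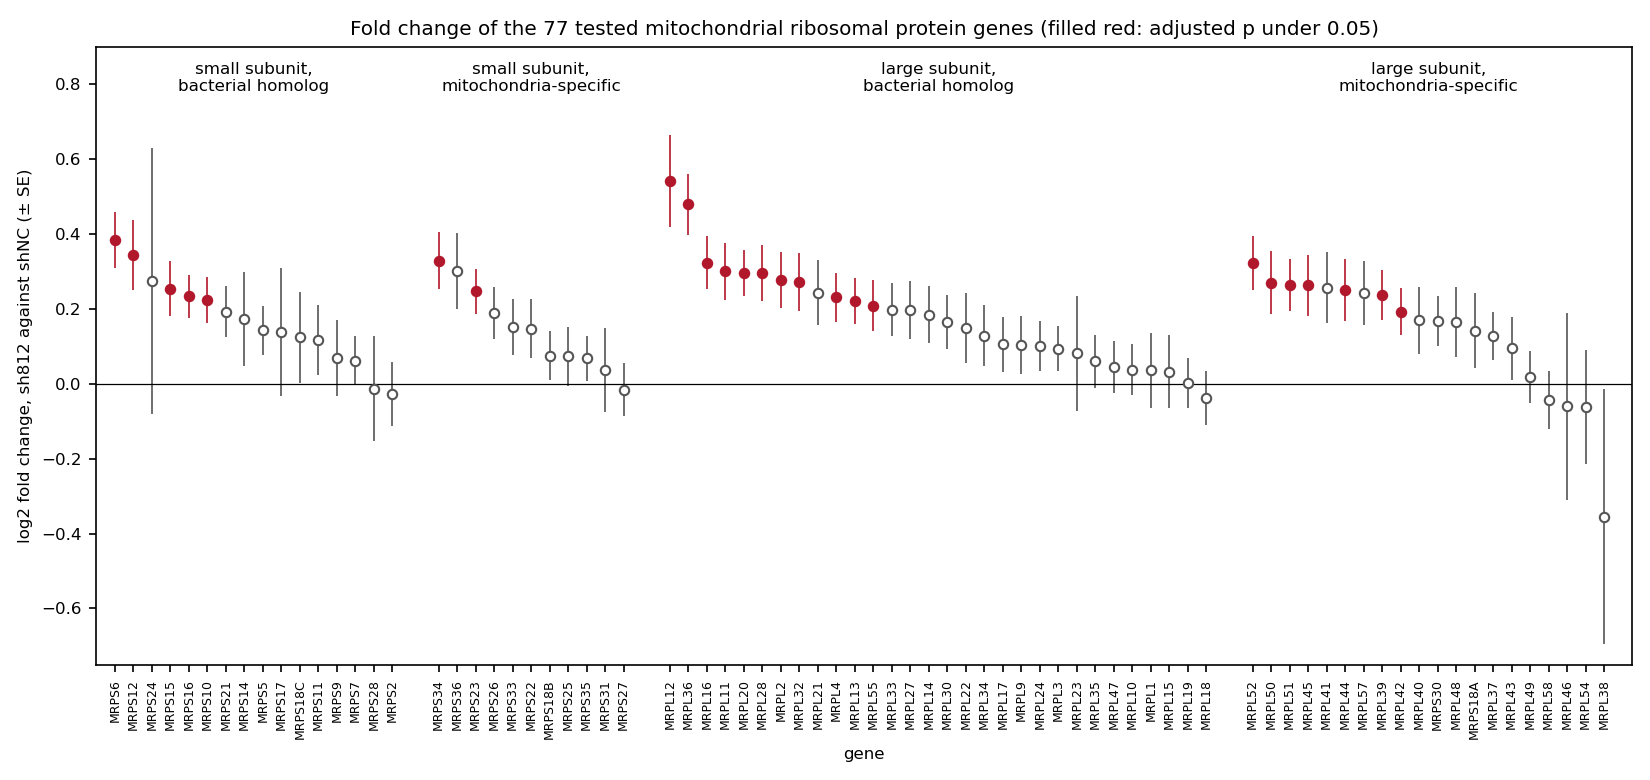
Log2 fold change of each of the 77 tested genes (y axis, sh812 against shNC, bars ± SE from edgeR's fit), ordered within 4 classes by subunit and by whether the protein has a bacterial counterpart. Filled red points are the 25 genes with an adjusted p under 0.05, all above zero, and the widest bars belong to the members with few counts.

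Summed over the members, the level was 4767 and 5026 CPM in the shNC libraries and 5617 and 5423 CPM in the sh812 libraries. Both sh812 sums were above both shNC sums, and the means of 4896 ± 183 and 5520 ± 138 CPM (SD, n = 2) differed by 12.7%. The members took 0.488% and 0.505% of all counts in shNC and 0.552% and 0.535% in sh812. The small subunit moved from 1761 and 1853 CPM to 2068 and 2015 CPM, and the large subunit from 3006 and 3173 CPM to 3549 and 3407 CPM. These are relative levels in bulk RNA, in which a change in the make-up of the culture and a change in RNA per cell cannot be told apart.

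The libraries of 1 group also differed from each other, with smaller median differences than those between the groups. In shNC replicate 2, 59 of 77 members were above shNC replicate 1, with a median log2 difference of 0.08. In sh812 replicate 2, 56 of 77 were below sh812 replicate 1, with a median of -0.05. Taken pair by pair, the median of sh812 replicate 1 over shNC replicate 1 was 0.23, and that of sh812 replicate 2 over shNC replicate 2 was 0.11. In the latter pair 59 of 77 members were above zero, the same count as between the shNC libraries. For 56 members (72.7%) both sh812 libraries were above both shNC libraries, and for 1 (1.30%) both were below. The same order was found for 26.2% and 27.4% of all genes.

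Promoter sequences were read for the members from RefSeq's table on GRCh38.p14, as windows of 300 bases made of 250 before the annotated start and 50 after it. A window was found for 69 of the 78 members. On either strand, 30 of the 69 (43.5%) held the letters CCGGAAG, the core bound by ETS factors such as GABPA, beside 20.9% of 11290 other tested genes with a window. The letters ATGGCGG, from the site bound by YY1, were in 24 members (34.8%) beside 11.7% of the other tested genes, and 7 members held both motifs. Over all 27305 genes with a window, the shares were 12.2% and 6.66%. Among called and uncalled members the counts were 10 of 23 (43.5%) and 19 of 45 (42.2%) for the first and 8 of 23 (34.8%) and 16 of 45 (35.6%) for the second. The NRF1 letters GCGCATG were in 10.1% of members and 8.47% of other tested genes. The GC box GGGCGG was in 60.9% and 75.3%, and CCAAT in 33.3% and 43.1%. None of these motifs contains another, though their ends can overlap. A match describes the letters of the window and does not show that a factor binds there.

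The following 6 sequences show these motifs in the 200 bases before the start. They are the 4 called members of smallest p and the 2 uncalled members of largest p that hold a match there and have 1 window in the table. Each runs 5′ to 3′ on the gene's strand, and capitals mark CCGGAAG or ATGGCGG or their reverse complements.
MRPL36: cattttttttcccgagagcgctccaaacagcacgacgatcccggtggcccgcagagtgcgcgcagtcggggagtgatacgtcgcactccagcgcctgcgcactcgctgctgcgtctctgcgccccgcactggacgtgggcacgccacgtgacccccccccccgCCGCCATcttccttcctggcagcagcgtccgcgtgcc
MRPL20: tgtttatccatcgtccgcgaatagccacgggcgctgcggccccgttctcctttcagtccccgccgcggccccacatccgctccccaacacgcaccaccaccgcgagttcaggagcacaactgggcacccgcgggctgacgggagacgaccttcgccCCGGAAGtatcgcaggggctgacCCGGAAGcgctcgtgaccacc
MRPL52: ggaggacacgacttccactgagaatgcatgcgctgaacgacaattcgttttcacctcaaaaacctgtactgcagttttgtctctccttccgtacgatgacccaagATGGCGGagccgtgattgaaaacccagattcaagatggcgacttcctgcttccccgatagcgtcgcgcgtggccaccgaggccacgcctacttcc
MRPS34: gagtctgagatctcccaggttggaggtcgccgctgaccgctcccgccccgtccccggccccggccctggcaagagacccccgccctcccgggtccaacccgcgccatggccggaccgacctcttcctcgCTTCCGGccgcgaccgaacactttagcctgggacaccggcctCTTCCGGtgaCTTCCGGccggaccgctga
MRPL19: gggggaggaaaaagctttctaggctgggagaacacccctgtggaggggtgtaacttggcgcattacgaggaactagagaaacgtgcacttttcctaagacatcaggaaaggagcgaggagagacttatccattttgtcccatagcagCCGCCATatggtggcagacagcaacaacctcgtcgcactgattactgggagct
MRPS31: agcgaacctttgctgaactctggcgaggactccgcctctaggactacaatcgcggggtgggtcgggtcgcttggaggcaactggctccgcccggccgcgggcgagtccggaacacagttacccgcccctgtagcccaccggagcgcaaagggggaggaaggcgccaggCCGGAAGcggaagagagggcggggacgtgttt

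On GRCh38.p14 these stretches lie at chr5:1799838-1800037 on the minus strand (MRPL36), chr1:1407294-1407493 on the minus strand (MRPL20) and chr14:22829687-22829886 on the plus strand (MRPL52). Those of MRPS34, MRPL19 and MRPS31 lie at chr16:1773135-1773334 on the minus strand, chr2:75646583-75646782 on the plus strand and chr13:40771191-40771390 on the minus strand. The YY1 letters of MRPL36 begin 37 bases before the start, and those of MRPL19 begin 53 bases before it. MRPL20 holds the ETS core at 44 and 21 bases before the start, MRPS31 at 32 bases, and MRPS34 holds 3 copies. The groups overlapped for both uncalled genes. MRPL19 was at 98.2 and 104 CPM in shNC and 104 and 97.6 CPM in sh812, and MRPS31 at 18.5 and 21.5 CPM in shNC and 22.0 and 18.9 CPM in sh812.

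In the large subunit, 18 of 50 tested members rose (36.0%) and 0 fell, beside 5.43% and 5.42% of all genes. The median log2 fold change of this subunit was 0.17. The member with the largest fold change was MRPL12, the stalk protein that recruits translation factors to the ribosome. Its libraries were at 11.3 and 14.2 CPM in shNC and 18.0 and 19.0 CPM in sh812, a log2 fold change of 0.54 ± 0.12 (adjusted p = 0.00545). Every sh812 value was above every shNC value, but this was also the called member with the lowest level. Of its 1028 exon bases on chromosome 17 (81703357 to 81707526, plus strand), 68.2% are shared on the same strand with AC139530.2, and how the authors' counting treated shared reads is not stated. MRPL36, the counterpart of a small bacterial large-subunit protein, shares no exon bases with another gene (chromosome 5, 1798386 to 1801366, minus strand). It was at 37.3 and 38.2 CPM in shNC and 55.1 and 50.2 CPM in sh812, a rise of 39.5% (log2 0.48 ± 0.08, adjusted p = 0.000337).

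MRPL20, an rRNA-binding protein with a bacterial counterpart, was at 121 and 125 CPM in shNC and 155 and 147 CPM in sh812 (log2 0.30 ± 0.06, adjusted p = 0.00291). MRPL16, which lies near the peptidyl transferase centre, was at 59.6 and 58.6 CPM against 75.8 and 72.2 CPM (0.32 ± 0.07, adjusted p = 0.00421). MRPL52, a mitochondria-specific protein of the central protuberance, was at 69.4 and 72.3 CPM against 94.2 and 83.0 CPM (0.32 ± 0.07, adjusted p = 0.00504). In all 3 genes the groups did not overlap and sh812 replicate 1 was the highest library. MRPL52 was the 1 called gene (16.7%) of the 6 members listed for the central protuberance, beside 5.43% of all genes. The median log2 fold change of the 6 was 0.06, and -0.05 with the length trend removed.

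The stalk base protein MRPL11 was at 64.5 and 71.5 CPM in shNC and 89.3 and 78.2 CPM in sh812 (log2 0.30 ± 0.08, adjusted p = 0.0115). The other tested stalk protein pair, MRPL10 and MRPL54, did not pass the test. Of the 7 members listed around the exit of the nascent chain tunnel, 3 rose (42.9%) and 0 fell, beside 5.43% and 5.42% of all genes. MRPL45, which anchors the ribosome to the inner membrane, was at 36.6 and 39.5 CPM against 45.2 and 46.1 CPM (0.26 ± 0.08, adjusted p = 0.0388). MRPL44, a protein with an RNase III fold, was at 40.7 and 37.5 CPM against 47.5 and 45.6 CPM (0.25 ± 0.08, adjusted p = 0.0490). MRPL39, another mitochondria-specific protein of this group, was at 73.9 and 76.5 CPM against 88.4 and 88.7 CPM (0.24 ± 0.07, adjusted p = 0.0234). The 2 groups did not overlap in any of these 3 genes, and no member of the exit group had a fitted fold change below zero. With the length trend removed, described further on, 3 of the 7 were below zero and 0 were called.

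Among the other called large-subunit members, MRPL2, a core protein beside the peptidyl transferase centre, was at 50.3 and 54.6 CPM against 64.9 and 62.2 CPM (log2 0.28 ± 0.08). MRPL32, which is cut by an inner-membrane protease before it joins the ribosome, was at 49.1 and 48.0 CPM against 61.8 and 55.5 CPM (0.27 ± 0.08). MRPL51, a mitochondria-specific protein, was at 93.2 and 107 CPM against 124 and 116 CPM (0.26 ± 0.07), and 31.3% of its exon bases are shared with NCAPD2 on the opposite strand. Without shNC replicate 1 the log2 fold change of MRPL51 was 0.17 and the gene was not called. Their adjusted p-values lay between 0.0164 and 0.0250. The remaining called genes of this subunit were MRPL28 (0.30), MRPL50 (0.27), MRPL4 (0.23), MRPL13 (0.22), MRPL55 (0.21) and MRPL42 (0.19), given as log2 fold changes. MRPL55 was the last inside the threshold, at an adjusted p of 0.0498. The first outside it was MRPS36, at 22.1 and 19.9 CPM against 25.0 and 26.9 CPM (0.30 ± 0.10, adjusted p = 0.0554). MRPS36 carries a ribosomal symbol but is also known as a subunit of the oxoglutarate dehydrogenase complex.

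In the small subunit, 7 of 27 members rose (25.9%) and 0 fell, beside 5.43% and 5.42% of all genes. The median log2 fold change of this subunit was 0.15. MRPS6, the counterpart of a bacterial small-subunit protein, was at 54.7 and 62.8 CPM in shNC and 76.1 and 77.1 CPM in sh812 (0.38 ± 0.08, adjusted p = 0.00163). Its gene on chromosome 21 (34073224 to 34143034, plus strand) shares 9.6% of its exon bases on the same strand with SLC5A3 and AP000317.2. MRPS12, the decoding-centre protein whose bacterial counterpart is a site of streptomycin resistance, was at 43.0 and 56.7 CPM against 64.8 and 61.5 CPM (0.34 ± 0.09, adjusted p = 0.0176). Its shNC libraries were farther apart than its sh812 libraries, and its log2 fold change was 0.16 (adjusted p = 0.228) without shNC replicate 1 and 0.56 without shNC replicate 2. MRPS34, a mitochondria-specific protein linked to Leigh syndrome, was at 48.4 and 54.5 CPM against 65.7 and 63.6 CPM (0.33 ± 0.08, adjusted p = 0.00689).

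MRPS16, whose loss causes an inherited defect of mitochondrial translation, was the most abundant member per length, at 124 CPM per kilobase of exon. It was at 311 and 325 CPM in shNC and 378 and 369.8 CPM in sh812 (0.23 ± 0.06, adjusted p = 0.00932). MRPS23 (0.25), MRPS15 (0.25) and MRPS10 (0.22) were the other small-subunit genes called, with these log2 fold changes. MRPS35, next in level at 89.0 CPM per kilobase, was at 169 and 175 CPM against 182 and 179 CPM and did not pass the test (0.07 ± 0.06, adjusted p = 0.527). MRPL51 was the third in level per length at 71.1 CPM per kilobase.

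**Figure D2:**
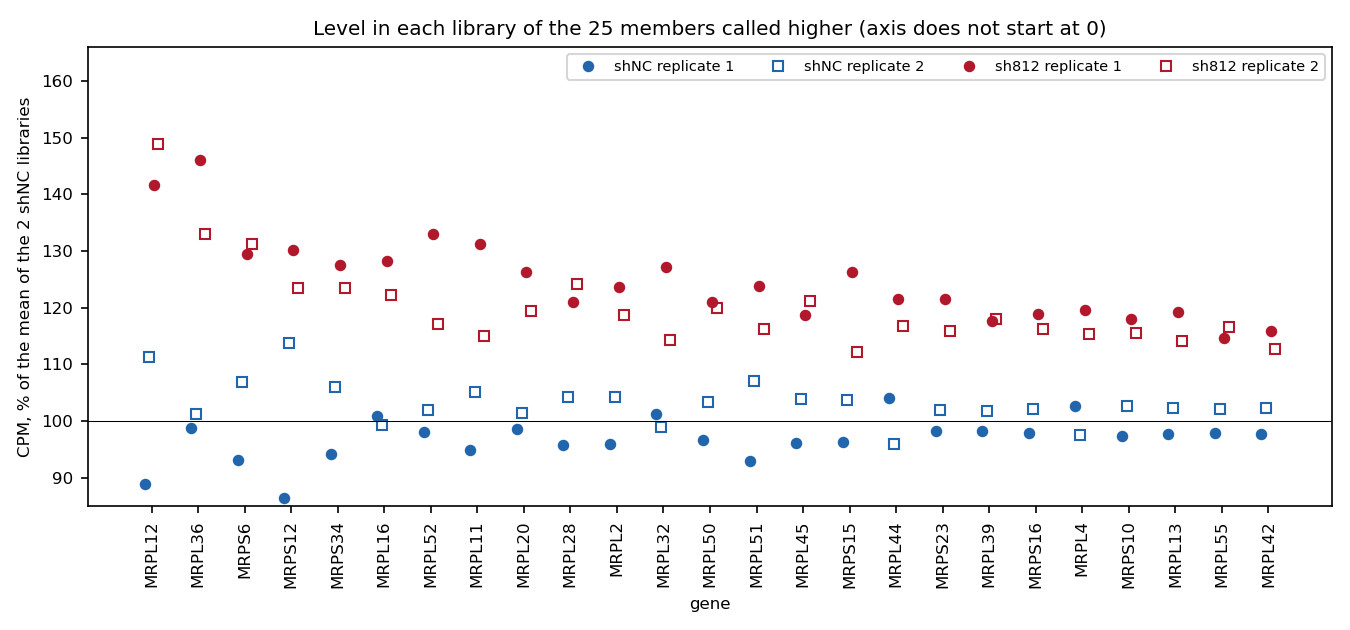
Level of the 25 called genes in each library (y axis, CPM as a percentage of the mean of the 2 shNC libraries, not starting at 0), ordered by fold change. Blue symbols are shNC and red symbols sh812, filled for replicate 1 and open for replicate 2, and red lies above blue for every gene.

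For all 25 called genes both sh812 libraries were above both shNC libraries, an order that passing the test largely requires. In 21 of the 25, shNC replicate 2 was above shNC replicate 1, and in 19 sh812 replicate 2 was below sh812 replicate 1. The rises ran from 14.3% to 45.7%, with a median log2 fold change of 0.27. Among the 52 uncalled members, 44 had a fitted fold change above zero and 8 below it, with a median of 0.10, and 12 had an unadjusted p under 0.05 with the higher value in sh812. The standard error had a median of 0.08 over the members. With 2 libraries per group, a fold change at the members' median of 0.17 was thus not separable from zero for most of them.

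The 3 paralogs of MRPS18, which arose from 1 bacterial-type gene, did not pass the test in any copy. MRPS18B was at 88.1 CPM in both shNC libraries and 91.8 and 93.9 CPM in sh812 (log2 0.08 ± 0.07, adjusted p = 0.529). MRPS18A, which sits in the large subunit, was at 22.6 and 23.0 CPM against 26.5 and 23.8 CPM (0.14 ± 0.10, adjusted p = 0.406), and 47.0% of its exon bases are shared with RSPH9 on the opposite strand. MRPS18C was at 13.2 and 16.3 CPM against 16.2 and 15.9 CPM, with groups that overlapped (0.12 ± 0.12, adjusted p = 0.586). The direction of MRPS18C turned without shNC replicate 1 (-0.02), and that of MRPS18B with the length trend removed (-0.01). MRPS30 of the large subunit was at 87.7 and 87.6 CPM against 102 and 94.9 CPM (0.17 ± 0.07, adjusted p = 0.106).

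The lowest tested members per length were MRPL46, MRPL38 and MRPS24, at 0.421, 0.438 and 0.563 CPM per kilobase. MRPL38 was at 2.14 and 1.45 CPM in shNC and 1.37 and 1.45 CPM in sh812, and its log2 fold change of -0.35 ± 0.34, the lowest among the members, did not pass the test (adjusted p = 0.576). Without shNC replicate 1 it was -0.04, and without shNC replicate 2 it was -0.59. MRPS24 was at 1.21 and 1.45 CPM against 1.82 and 1.40 CPM, and MRPL46 at 2.93 and 2.59 CPM against 2.71 and 2.60 CPM. MRPL38 shares 37.5% and MRPS24 23.2% of their exon bases with another gene on the same strand. With standard errors up to 0.36, changes of the size seen in the abundant members were not detectable here.

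Members with bacterial counterparts and mitochondria-specific members gave similar counts. Of 46 with counterparts 16 rose (median 0.17), and of 31 specific to mitochondria 9 rose (median 0.16), a difference that was not tested. Of the MRPS18 paralogs, MRPS18C was counted in the first class, and MRPS18A and MRPS18B in the second. Across the 77 members, the Spearman correlation of the log2 fold change was 0.13 with the mean CPM, -0.16 with transcript length and 0.16 with GC content, over genes that share the same 4 libraries. Exon bases were shared with another gene for 40 tested members, 14 of them called, and for 37 there was no shared base, with 11 called. The genes lie on 21 chromosomes. The 79 pseudogene rows of the family held 0.124% to 0.160% of the members' counts.

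The members are short, and fold changes in these libraries fell with transcript length. The members' median transcript length was 1532 bases, beside 2975 over all genes tested. Across 12254 genes the Spearman correlation of the log2 difference with transcript length was -0.34 between the groups. It was -0.33 between the 2 shNC libraries and 0.045 between the 2 sh812 libraries. After each library's trend on length was removed, 10 members were called higher (13.0%) and 0 lower, beside 5.17% and 4.76% of all genes. At an unadjusted p under 0.05 that fit gave 24 members higher and 2 lower, beside 11.9% and 11.7% of all genes. The members' median fell to 0.10, with 56 above zero. The 10 were MRPL12, MRPL36, MRPS6, MRPS23, MRPL42, MRPL50, MRPL11, MRPL28, MRPS16 and MRPS10. With trends on length and GC content removed, 13 were called higher (16.9%), and 0 lower, beside 5.43% and 4.97% of all genes.

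**Figure D3:**
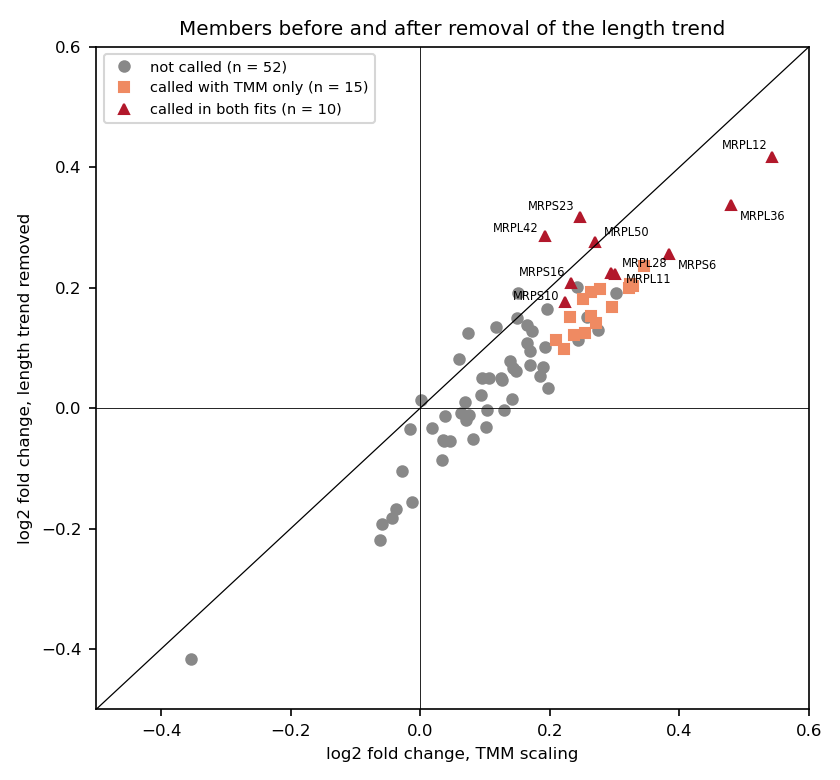
Log2 fold change of the 77 tested genes with TMM scaling (x axis) and with the trend on transcript length taken out of each library (y axis), with the line of equal values. Most points lie under the line, and the 10 red triangles are the genes called in both fits.

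For 15 members the call ended with the length trend removed. MRPL20 then had a log2 fold change of 0.17 (adjusted p = 0.0564), MRPL16 0.21 (0.0507), MRPL52 0.20 (0.0537), MRPS34 0.20 (0.0586) and MRPS12 0.24 (0.0671), adjusted p-values of edgeR in brackets. MRPL13 fell to 0.10 and MRPL39 to 0.12. MRPL36 remained at 0.34 (adjusted p = 0.00508) and MRPL12 at 0.42 (adjusted p = 0.0221). The genes called in all 10 alternatives that used the 4 libraries were MRPL11, MRPL12, MRPL28, MRPL36, MRPS16, MRPS23 and MRPS6.

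Most genes listed for the mitochondrial ribosome under other symbols rose as well. Of 6 tested, 4 rose (66.7%) and 0 fell, beside 5.43% and 5.42% of all genes, with a median of 0.24 over the 6. The 6 include OXA1L, which is not itself a ribosomal protein. OXA1L, the insertase that docks at the ribosome exit, was at 173 and 174 CPM in shNC and 213 and 203 CPM in sh812 (0.26 ± 0.06, adjusted p = 0.00515). GADD45GIP1 (0.26), AURKAIP1 (0.24) and CHCHD1 (0.24) rose as well. With the length trend removed, AURKAIP1 (0.12, adjusted p = 0.192) and CHCHD1 (0.13, adjusted p = 0.163) were no longer called, and PTCD3 was. DAP3 was at 213 and 218 CPM against 231 and 222 CPM and did not pass the test. The mitochondrial ribosomal RNAs, measured here after poly(A) selection, rose too. MT-RNR2 of the large subunit was at 1739 and 1935 CPM against 2093 and 2346 CPM (0.27, adjusted p = 0.00542). MT-RNR1 of the small subunit was at 247 and 264 CPM against 278 and 306 CPM (0.19, adjusted p = 0.0466), a call that ended with the length trend removed (0.06).

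Among 31 tested genes of mitochondrial ribosome assembly, 5 rose (16.1%) and 0 fell, beside 5.43% and 5.42% of all genes. The median of the 31 was 0.09. MTERF3, which is needed for assembly of the large subunit, was at 77.2 and 71.6 CPM against 92.4 and 93.8 CPM (0.32 ± 0.07, adjusted p = 0.00319). C1QBP (0.26), FASTKD2 (0.24) and NDUFAB1 (0.23) also rose. After removal of the length trend, 2 of the 31 were called higher (6.45%), MTERF3 and FASTKD2, and 1 was called lower (3.23%), RPUSD3. Of all genes, 5.17% and 4.76% were called in that fit. C1QBP (0.15, adjusted p = 0.0879) and NDUFAB1 (0.10, adjusted p = 0.363) were then no longer called. Of 18 translation factors and mRNA-binding proteins, 2 rose (11.1%) and 1 fell (5.56%), beside 5.43% and 5.42% of all genes. SLIRP, which stabilises mitochondrial mRNAs, was at 49.7 and 52.8 CPM against 65.8 and 62.6 CPM (0.33 ± 0.07), and TUFM, the elongation factor, was at 197 and 222 CPM against 244 and 239.8 CPM (0.21 ± 0.06). PTCD2, a pentatricopeptide protein whose exons meet those of MRPS27 on the opposite strand, fell from 15.1 and 13.6 CPM to 9.83 and 11.7 CPM (-0.42 ± 0.13, adjusted p = 0.0367). With the length trend removed, SLIRP, TUFM and PTCD2 were no longer called and MRRF was called higher.

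None of the 6 genes of mitochondrial transcription was called by edgeR with TMM scaling of all 4 libraries or by limma-voom. In edgeR with TMM scaling, 2 (33.3%) were higher at an unadjusted p under 0.05, beside 11.9% of all genes. TFAM, which packages mitochondrial DNA, was at 225 and 232 CPM in shNC and 252 and 261 CPM in sh812 (log2 0.16, adjusted p = 0.0711). It was called higher, as the 1 gene of this list, by DESeq2 and by edgeR with the length trend removed (0.23, adjusted p = 0.00633). The same held in edgeR with trends on length and GC content removed. POLRMT, the polymerase, had a log2 fold change of 0.12 (adjusted p = 0.339). Of 8 tested regulators of mitochondrial biogenesis, 1 rose (12.5%) and 1 fell (12.5%), beside 5.43% and 5.42% of all genes. MYC, a transcription factor known for driving ribosome production, was at 167 CPM in both shNC libraries and at 216 and 223 CPM in sh812 (0.40, adjusted p = 7.70e-05). GABPA, the ETS factor named above, fell from 73.6 and 67.7 CPM to 59.3 and 59.4 CPM (-0.25, adjusted p = 0.0257), a call that ended with the length trend removed (-0.19, adjusted p = 0.0728). NRF1 and YY1 had log2 fold changes of -0.11 and -0.07 and did not pass the test.

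The import and processing machinery, which brings the proteins into the matrix, had 5 of 13 genes called higher (38.5%) and 0 lower, with a median of 0.19. HSPD1, the matrix chaperonin, was at 1506 and 1556 CPM against 1961 and 1798 CPM (0.30 ± 0.06, adjusted p = 0.00119). TOMM22, an outer-membrane receptor, rose by 0.31, HSPE1, the partner of HSPD1, by 0.34, and PMPCA, a subunit of the presequence protease, by 0.23 on the log2 scale. Once the length trend was removed, 3 of the 13 were called, HSPD1, TOMM22 and TOMM40, and HSPE1 and PMPCA were not. Over all 82 tested genes of these related lists, 17 rose (20.7%) and 2 fell (2.44%), and the median was 0.12. Of all genes, 5.43% rose and 5.42% fell. The shares of all genes called in the fits that follow are given with the members above. The number called higher was 2 without sh812 replicate 1, 5 without sh812 replicate 2 and 11 without shNC replicate 1, and 11 with the length trend removed. Without shNC replicate 1 the log2 fold changes were 0.14 for AURKAIP1, 0.15 for CHCHD1 and NDUFAB1, 0.17 for C1QBP and 0.19 for HSPE1, and all of these but C1QBP lost their calls.

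**Figure D4:**
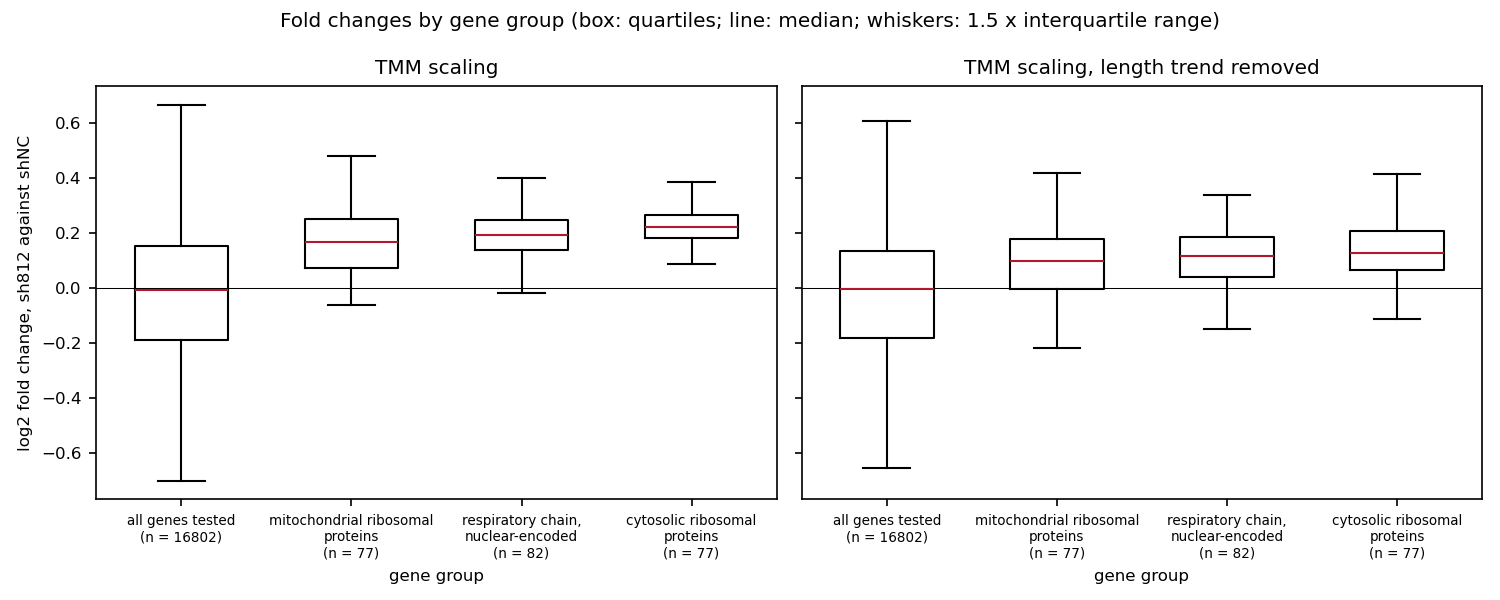
Log2 fold changes (y axis, sh812 against shNC) of all genes tested, the mitochondrial ribosomal proteins, nuclear-encoded respiratory chain genes and cytosolic ribosomal proteins, with TMM scaling on the left and with the length trend removed on the right. Boxes span the quartiles with the median as a line, and the medians of the 3 families lie above the median of all genes in both panels.

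Genes of the cytosolic ribosome and the respiratory chain were called higher as well. Cytosolic ribosomal protein genes were called higher in 55 of 77 cases (71.4%), with a median of 0.22. For nuclear-encoded respiratory chain genes it was 30 of 82 (36.6%), with a median of 0.19. Over all genes tested in that fit, 5.43% were called higher and 5.42% lower. None of either family was called lower by edgeR with TMM scaling. At an unadjusted p under 0.05 that fit gave 0 lower in both, beside 12.9% of all genes. Their summed levels differed between groups by 18.0% and 15.9%, beside 12.7% for the mitochondrial ribosomal proteins. The cytosolic sums were 45754 and 50957 CPM in shNC and 57344 and 56803 CPM in sh812. Those of the respiratory chain were 9642 and 10556 CPM in shNC and 11874 and 11533 CPM in sh812. In both families the shNC libraries lay farther apart than the sh812 libraries. With the length trend removed the calls were 29 higher (37.7%) and 0 lower for the cytosolic ribosomal proteins. For the respiratory chain they were 17 higher (20.7%) and 1 lower (1.22%), beside 5.17% and 4.76% of all genes. At an unadjusted p under 0.05 that edgeR fit gave 2 lower in each family, beside 11.7% of all genes. The differences between these families were not tested.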

How the data were processed

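The deposited table holds raw counts per gene that the authors had not normalized: whole numbers with a different total in each of the 4 libraries. Per the submitters' processing notes, fastp, STAR 2.7.1a, featureCounts and DESeq2 were used with build hg38. Their settings, the annotation release and the strand rule are not given in the sources used here. Per the labels' protocols, the libraries were strand-marked with dUTP and read as pairs of 150 bp.

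The members and gene lists were chosen with earlier results of these data known. The letters of the promoter motifs were settled after the data had been seen; longer forms of the YY1 and NRF1 motifs were searched first. Counts were fitted over the whole table with edgeR 4.0.16 (R 4.3.3): filterByExpr, TMM scaling, quasi-likelihood test, no covariate, both groups of 2, and Benjamini-Hochberg adjustment over 16802 genes. The threshold was an adjusted p of 0.05. SE is the size of the log2 fold change divided by the square root of F. CPM uses TMM-adjusted library sizes. Levels between genes use CPM per kilobase of exon (GENCODE models, GRCh38). The biological coefficient of variation was 0.0633. The script was tested on simulated data. Same-numbered libraries deviated together with a correlation of 0.0164, so the numbers were not taken as pairs.

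Named genes were METTL3, all called members, the 3 highest and 3 lowest tested per length, members failing the filter, the MRPS18 paralogs, MRPS30, MRPL12, and up to 4 called genes per list and direction. Others, such as MRPS36, MRPS31, MRPL19, DAP3, PTCD3, RPUSD3, MRRF, TOMM40, TFAM, POLRMT, NRF1 and YY1, were named after their values were seen. Alternatives used other scalings and filters, DESeq2 1.42.0, limma 3.58.1 (voom), a replicate block, trends on length and GC content removed by lowess, and each library left out. One of the cell markers is not reported here.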

Additional observations from a re-analysis of the deposited data

How the results depend on the processing

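The members' direction as a group held in every alternative run, with 0 members called lower in each, while the number called higher did not. With library size alone as the scaling, 14 members and 561 of all genes (3.34%) were called higher, and the medians were 0.12 over the members, 0.10 over the small subunit and 0.12 over the large subunit. That scaling put the median of all genes at -0.05. With the length trend removed, 10 members were called and the medians were 0.10, 0.10 and 0.10, and with length and GC content removed 13 were called with the same medians. MRPS18B turned to -0.01 in both of those fits. DESeq2 called 21 members higher, beside 2.41% of all genes, and 585 of all genes lower. limma-voom called 26 members higher (5.81% of all genes), and the fit with no low-count filter 22 (3.20%). The shares for DESeq2 and for no filter are over 29783 genes with any count. They are not like for like with that of limma-voom, over 16802 filtered genes. Leaving out each library in turn gave 3 to 34 members called higher, 261 to 1703 genes higher, 326 to 1549 genes lower, and medians of 0.13 to 0.21 over the members, 0.13 to 0.21 over the small subunit and 0.13 to 0.21 over the large subunit. MRPL46 turned to 0.03 and MRPS18C to -0.02 without shNC replicate 1, within ranges of -0.14 to 0.03 and -0.02 to 0.29. METTL3 stayed between -2.52 and -2.33 in those fits. The cause of these shifts was not tested, beyond fewer libraries in the last set. With a replicate block, 28 members were called higher, beside 1003 of all genes higher and 998 lower, and METTL3 was at -2.42. Members under 10 CPM, 7 in number, had too few counts to resolve changes of the size seen here.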
